A study of Mus musculus with 11 samples.

Results

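Opioid peptides and their receptors were followed in the hypothalamus of male mouse offspring. The genes are Pdyn, Penk and Pnoc, which encode the precursors of dynorphins, enkephalins and nociceptin, and Oprk1, Oprm1, Oprd1 and Oprl1, which encode the κ, μ, δ and nociceptin receptors. Every mouse probe on the arrays whose transcript accession belongs to one of these 7 genes was taken, whatever its signal. This gave 9 probes on 18 spots, of 19987 genes named by accession, 39429 mouse probes and 43020 mouse spots per array. Oprm1 and Oprl1 each had a brighter and a dimmer probe, the dim Oprm1 probe was printed on 10 spots, and every other probe had 1 spot. All 9 probes were well above background on all 11 arrays.

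Opioid precursors are cut in the secretory pathway into short peptides that are released from neurons. The peptides bind receptors that couple to inhibitory G proteins, which lower cAMP, open potassium channels and close calcium channels. In the hypothalamus the system is known for its part in feeding and reward, in stress responses and in the control of the reproductive axis.

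Total RNA of hypothalamic tissue from male C57BL/6N pups at postnatal day 21 was hybridised with 1 dye to Agilent whole genome arrays. The CO group (n = 5, titled SD by the submitters) came from dams on standard chow, and the HFD group (n = 6) from dams that received a high fat diet from weaning, before mating and through gestation and lactation. The exposure was that of the dam, and no genetic change was involved. The labels name no dam and do not say that each sample is 1 animal. CO samples 1 to 3 share a leading number in their titles and CO samples 4 and 5 another, whose meaning is not stated, and by the methods no more than a pair of offspring per dam was analysed, so a p-value here covers only how far these samples spread, with littermates possibly among them.

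Levels are given as log2 of the processed signal minus the 75th percentile of the array, so that 0 is the signal of a probe at that percentile. That percentile was 2216 to 2932 intensity units on CO arrays and 3135 to 3447 on HFD arrays, and 82.5% to 85.7% of mouse spots were well above background in CO against 71.8% to 77.4% in HFD. The scan sessions of the groups were 337 days apart and no slide held both groups, so maternal diet and scan session cannot be told apart. Of the 31790 probes tested with limma, 67.1% differed between the groups at an adjusted p under 0.05, 23.6% higher and 43.6% lower in HFD, and the median difference of all probes was -0.18. Scaling to the spike-in controls moved that median to -0.85. The counts of opioid genes below are to be read against these shares.

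At the level of genes, each represented by its brightest probe, 2 of the 7 opioid genes were higher in HFD offspring (Oprk1 and Oprm1) and 3 were lower (Pdyn, Penk and Pnoc). Oprd1 and Oprl1 did not pass. These 5 of 7 genes are 71.4%, beside 66.4% of all 17188 genes tested, and the median difference of the 7 was -0.32 beside -0.17. The 2 genes higher compare with 22.2% of all genes and the 3 lower with 44.1%. The groups did not overlap for 5 of the 9 probes, beside 48% of all probes tested. In 2 of them all HFD samples were above the CO range (17.4% of all probes), and in 3 they were below it (30.6%). The share of opioid genes called was therefore near that of the whole array, and the values of the single members follow. With spike-in scaling 1 gene was higher and 5 were lower. For Oprm1 and Oprl1 the gene value is that of the bright probe, and which transcripts each probe reads was not known. The bright Oprm1 probe differed by 0.78, and by 0.105 with spike-in scaling, which did not pass. The dim Oprm1 probe differed by 0.30, and by -0.38 with spike-in scaling, and the dim Oprl1 probe by -0.81.

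**Figure D1:**
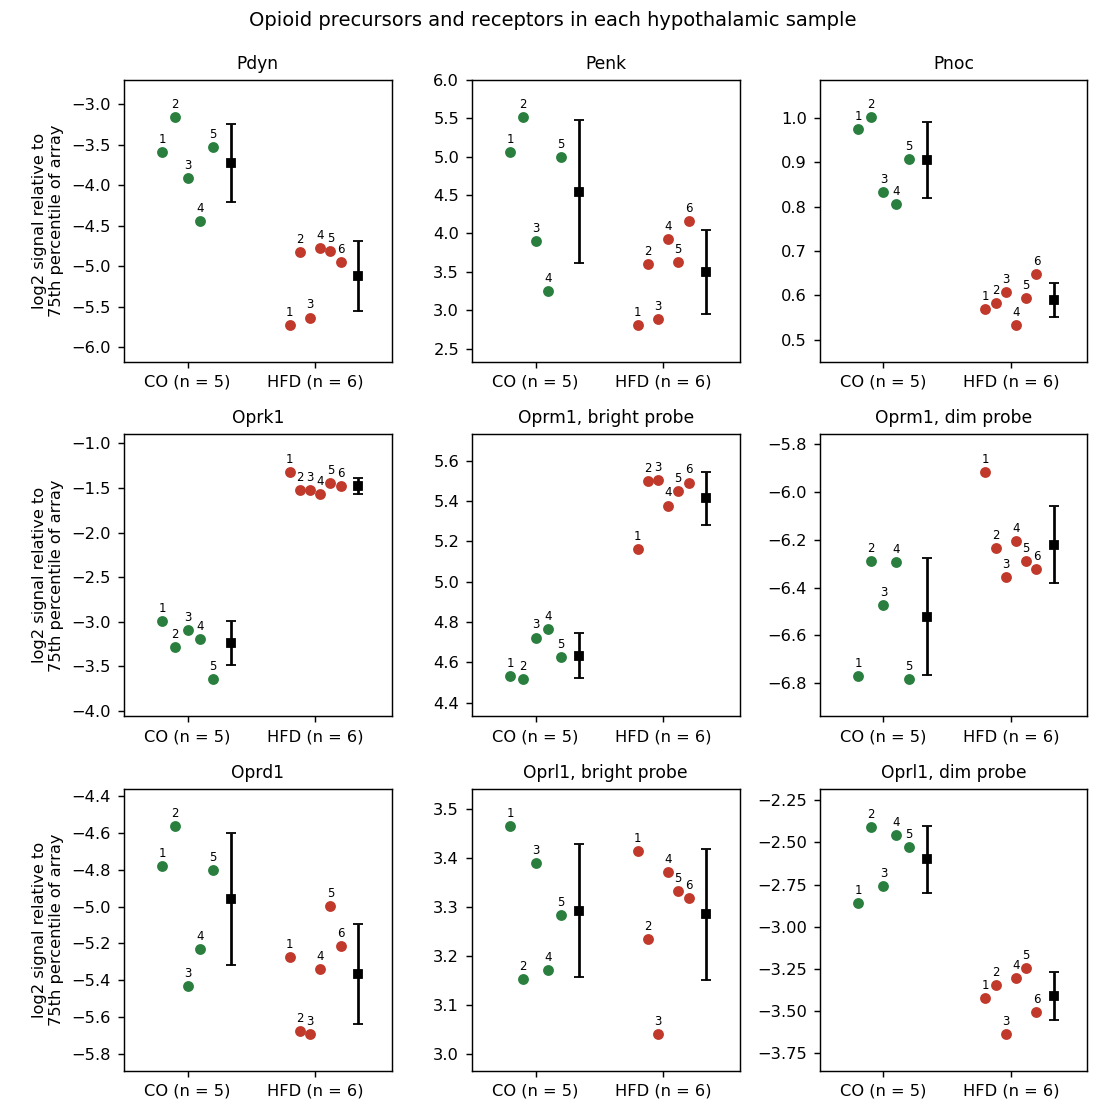
Level of each opioid probe in every sample, as log2 of the processed signal relative to the 75th percentile of the array, for CO (green, n = 5) and HFD (red, n = 6). Numbers name the samples, and black squares with bars give the mean and SD. Oprk1 and the bright Oprm1 probe lay higher in every HFD sample, Pdyn, Pnoc and the dim Oprl1 probe lay lower, and the other probes overlapped. The dim Oprm1 probe changed direction with spike-in scaling.

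Among the precursors, Pdyn fell most. Its level was -3.59, -3.16, -3.91, -4.44 and -3.53 in CO samples 1 to 5, and -5.72, -4.83, -5.63, -4.77, -4.81 and -4.95 in HFD samples 1 to 6. Every HFD sample lay below every CO sample, although the lowest CO sample and the highest HFD sample were close. The group means were -3.73 ± 0.48 (SD, n = 5) and -5.12 ± 0.44 (SD, n = 6), a difference of -1.39 (SE 0.25, 95% interval -1.94 to -0.84), or 2.63-fold lower (adjusted p = 0.000467, limma). Pdyn gave a signal of 61.9 to 121.5 units in HFD, where the dimmest probe well above background gave 16.2 to 24.2, so its level was low but measurable. With normexp background correction the difference was -0.88 and did not pass (adjusted p = 0.119, limma).

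The window of 250 bases before the first annotated start of Pdyn is shown because Pdyn is the precursor with the largest difference for which a promoter sequence was given. It lies on chr2:129699939-129700188, minus strand, in the RefSeq annotation of GRCm38.p6, and the capitals mark a CCAAT box read on the opposite strand.
Pdyn: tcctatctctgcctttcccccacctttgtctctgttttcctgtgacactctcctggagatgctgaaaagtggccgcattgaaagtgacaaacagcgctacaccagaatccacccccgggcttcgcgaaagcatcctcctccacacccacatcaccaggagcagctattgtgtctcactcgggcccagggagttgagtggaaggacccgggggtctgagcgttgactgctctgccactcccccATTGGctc
A second annotated start of Pdyn lay further downstream, and the window before it also held 1 CCAAT box. That motif stood in 33.8% of the 32851 promoter windows of this length.

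Penk, whose precursor holds several copies of enkephalin, had the widest spread of the opioid genes. CO samples 1 to 5 were at 5.06, 5.52, 3.91, 3.25 and 4.99, and HFD samples 1 to 6 at 2.81, 3.60, 2.88, 3.92, 3.62 and 4.16. CO samples 1, 2 and 5 lay above all HFD samples, while CO samples 3 and 4 lay within the HFD range. The means were 4.55 ± 0.94 (SD, n = 5) and 3.50 ± 0.55 (SD, n = 6), a difference of -1.05 (SE 0.40, 95% interval -1.93 to -0.16), or 2.07-fold lower. This passed in limma (adjusted p = 0.0382) and not in a two-sided exact permutation test of this probe alone (p = 0.052). Within the CO group the signal spanned 4.81-fold, and the within-group SD of 0.74 stood at the 97.6th percentile of all probes. Leaving out 1 sample at a time gave differences of -1.37 to -0.80 and adjusted p of 0.00513 to 0.0973 (limma). The call was lost without CO sample 1 (-0.92), CO sample 2 (-0.80), CO sample 5 (-0.94), HFD sample 1 (-0.91), HFD sample 2 (-1.07), HFD sample 3 (-0.92) or HFD sample 5 (-1.07). It was also lost with scaling to the array median (-0.99, adjusted p = 0.0507), with normexp (-1.15, adjusted p = 0.0576) and in the exact Mann-Whitney test (adjusted p = 0.165).

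Pnoc, the nociceptin precursor, differed little but tightly. It was at 0.98, 1.00, 0.83, 0.81 and 0.91 in CO and at 0.57, 0.58, 0.61, 0.53, 0.59 and 0.65 in HFD. No sample of one group reached the other. The means were 0.91 ± 0.09 (SD, n = 5) and 0.59 ± 0.04 (SD, n = 6), a difference of -0.32 (SE 0.06), or 1.25-fold lower (adjusted p = 0.000399, limma), and its within-group SD of 0.06 was at the 1.65th percentile of all probes. Relative to the median difference of all probes its difference was -0.14. Before scaling, its signal was 4159 to 5134 units in CO and 4780 to 5165 in HFD, and these ranges overlapped.

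Penk, Pdyn and, mainly among CO samples, Pnoc moved with genes of another brain region. A list of 16 striatal markers, of which 15 were tested, holds none of the 7 opioid genes. All 15 differences were below 0, 11 passed in limma (73.3%, beside 66.4% of all genes), and their median was -1.17. The summed level of the list, on a linear scale where 1 is the 75th percentile of the array, was 26.1 to 104.8 in CO (median 71.5) and 17.1 to 36.4 in HFD (median 24.9). Adora2a, an adenosine receptor of striatal enkephalin neurons, was at 1.78, 2.02, 0.19, -1.48 and 1.29 in CO and at -3.36, -1.62, -3.11, -1.36, -1.81 and -0.45 in HFD. CO samples 3 and 4, which were low in Penk, were also the lowest CO samples in Adora2a, and HFD samples 1 and 3 were lowest in both. In bulk tissue, fewer cells of a type and less RNA per cell cannot be told apart.

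Across the 11 arrays, after removing the group means, the correlation with the mean of the striatal list was 0.99 for Penk, 0.88 for Pdyn, 0.81 for Pnoc and 0.68 for Oprd1, and it was -0.28 for Oprk1, -0.27 for the bright Oprm1 probe and 0.14 for the bright Oprl1 probe. Of all 17152 genes with a value on every array, 1 had a higher correlation than Penk, 1.06% a higher one than Pdyn, 2.19% than Pnoc and 5.54% than Oprd1. The value for Pnoc came mainly from the CO samples. HFD sample 4 was the lowest in Pnoc (0.53), with the list at -0.26. HFD sample 1, the lowest in the list (-1.195), was at 0.57 in Pnoc. Of the 18 hypothalamic peptides tested, the highest stood near Pdyn and Pnoc, with Sst at 0.88, Nts at 0.86, Tac1 at 0.83 and Npy at 0.81. The rest were lower, from Crh at 0.75 through Pomc at 0.39 and Avp at 0.15 to Pmch at -0.48 and Cartpt at -0.57. These correlations describe arrays that share their samples, and genes are not independent of each other. Among the genes most like Penk were Drd1 (r = 0.99), the dopamine D1 receptor, and Meis2 (0.98), a transcription factor of the developing striatum. Drd1 had a difference of -0.98 that did not pass (adjusted p = 0.112, limma). Pdyn and Penk followed each other at r = 0.92 and Penk and Pnoc at 0.76.

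**Figure D2:**
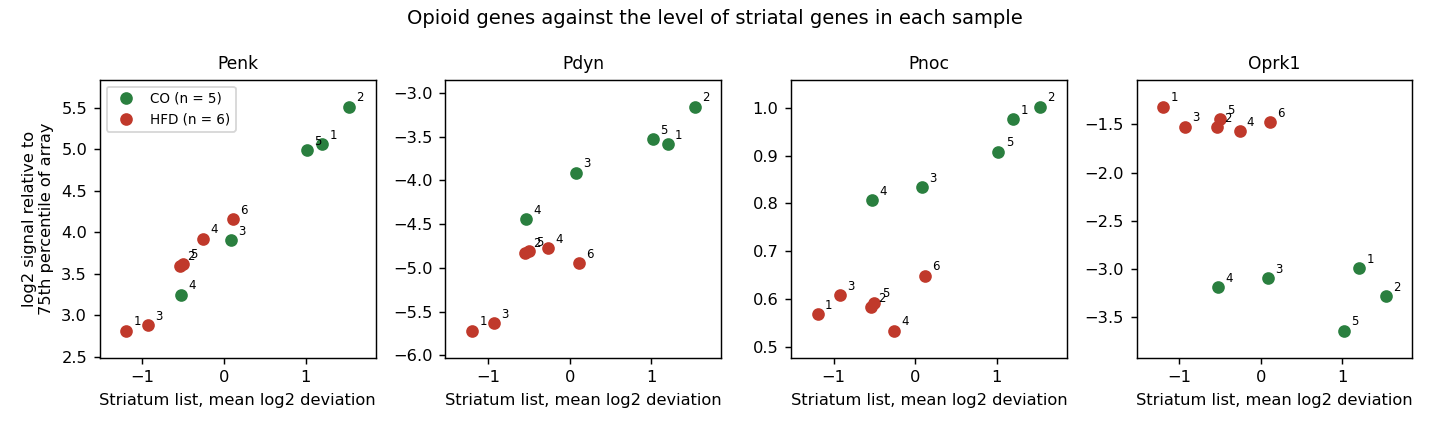
Level of Penk, Pdyn, Pnoc and Oprk1 (log2 relative to the 75th percentile of the array) against the mean log2 deviation of the striatal marker list, 1 point per sample, CO green and HFD red, with sample numbers. Penk was higher in samples higher in the list in both groups, with HFD samples somewhat above CO samples at like levels of the list. Pdyn and Pnoc were higher in the CO samples that were higher in the list. Oprk1 was higher in every HFD sample than in every CO sample. The list ran from -0.529 to 1.531 in CO and from -1.195 to 0.114 in HFD, and of the CO samples only 3 and 4 lay in the shared range.

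When the mean of the striatal list was added to the limma fit, a setting chosen after seeing the data, the difference of Penk turned to +0.30 (SE 0.10, adjusted p = 0.0276). Pdyn stayed lower at -0.66 (adjusted p = 0.0138) and Pnoc at -0.22 (adjusted p = 0.0201). Oprk1 was 1.67 higher (adjusted p = 2.72e-05) and the bright Oprm1 probe 0.72 higher (adjusted p = 0.000577). Since the list itself differed between the groups, this fit shares its term with maternal diet. Without CO sample 2 and HFD sample 6, the samples highest in the list, Penk was at -0.94 (adjusted p = 0.0678). Whether the cut of the tissue had a part in the differences was not tested.

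The genes most like Pdyn in deviation were Aldh1b1 (r = 0.95), an aldehyde dehydrogenase, Sh3rf2 (0.93) and Tpbg (0.93). Sh3rf2 (-2.77) and Aldh1b1 (-0.33) were lower in HFD, while Tpbg was 0.36 higher, so genes alike within groups differed between groups in both directions. The genes most like Pnoc were Cap1 (r = 0.95), Kcna5 (0.94), a potassium channel, and Actn1 (0.94). Their correlations with Pnoc were higher among CO samples (0.989, 0.99 and 0.974) than among HFD samples (0.814, 0.724 and 0.769).

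Oprk1, the κ receptor at which dynorphins act, showed the largest difference of the 9 probes. It was at -2.99, -3.28, -3.10, -3.19 and -3.64 in CO samples and at -1.32, -1.53, -1.53, -1.57, -1.45 and -1.48 in HFD samples. Every HFD sample lay far above every CO sample, and the HFD samples lay close together. The means were -3.24 ± 0.25 (SD, n = 5) and -1.48 ± 0.09 (SD, n = 6), a difference of 1.76 (SE 0.11, 95% interval 1.53 to 1.99), or 3.39-fold higher (adjusted p = 2.39e-07, limma). It was the only opioid probe called at least 2-fold higher, beside 7.36% of all probes tested (20.1% in either direction), and 2.88% of all were called with an increase of at least this size. The unscaled signal was 177.5 to 321.9 units in CO and 1089 to 1310 in HFD. Oprk1 passed under all 26 other settings, at 1.08 (spike-in scaling) to 1.82. Precursor and receptor of the dynorphin pair differed in opposite directions, Pdyn by -1.39 and Oprk1 by 1.76.

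The genes most like Oprk1 were Grik2 (r = 0.93), a kainate receptor subunit that was itself 2.19 higher in HFD (adjusted p = 5.9e-06, limma), Ppp4r2 (0.92) and Scd3 (0.92), a fatty acid desaturase. Ppp4r2 was 0.81 and Scd3 0.93 higher. Their correlations with Oprk1 were higher among CO samples (Grik2 0.968, Ppp4r2 0.936, Scd3 0.963) than among HFD samples (0.69, 0.835 and 0.578). They were picked as the highest of 15368 genes, so a high r was in part a result of that choice.

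Oprm1, the μ receptor at which enkephalins and β-endorphin act, was read by a pair of probes of very different brightness that carry the same accession. The bright probe was at 4.53, 4.52, 4.72, 4.77 and 4.63 in CO and at 5.16, 5.50, 5.50, 5.38, 5.45 and 5.49 in HFD. All HFD samples lay above all CO samples. The difference of means was 0.78 (SE 0.08, 95% interval 0.61 to 0.96), or 1.72-fold higher (adjusted p = 7.31e-06, limma). Its signal was 54700 to 79830 units in CO and 116900 to 155900 in HFD, with no spot marked as saturated. With spike-in scaling the difference was 0.11 and did not pass (adjusted p = 0.394).

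The dim Oprm1 probe was at -6.77, -6.29, -6.47, -6.29 and -6.78 in CO and at -5.92, -6.23, -6.36, -6.20, -6.29 and -6.32 in HFD. Its groups overlapped, since CO samples 2 and 4 lay within the HFD range. The difference was 0.30 (SE 0.12, adjusted p = 0.0394, limma), it was -0.38 with spike-in scaling (adjusted p = 0.0232), 0.80 with quantile normalization and 0.06 with normexp, and it was 0.32 with the replicate number as a block (adjusted p = 0.0798). The call was also lost on leaving out CO sample 1 (0.24), CO sample 3 (0.31), CO sample 5 (0.24), HFD sample 1 (0.24), HFD sample 2 (0.30), HFD sample 4 (0.30) or HFD sample 5 (0.32). Its 8 to 10 kept spots on an array had a coefficient of variation of 5.28% to 20.1%, and the standard error of their mean log2 signal was 0.03 to 0.09, below the SD between samples of 0.24 in CO and 0.16 in HFD. Across arrays the probes deviated with r = -0.29, and so did not follow each other within the groups. Whether the bright probe reads Oprm1 alone was not tested.

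**Figure D3:**
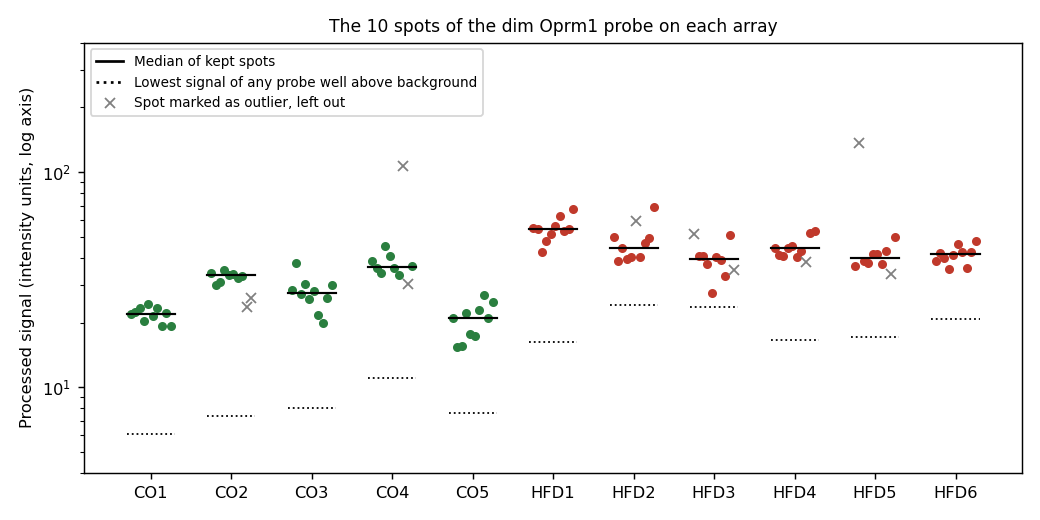
Processed signal (intensity units, log axis) of the 10 spots of the dim Oprm1 probe on each array, CO green and HFD red. Solid lines give the median of the kept spots, dotted lines the lowest signal of any probe well above background on that array, and crosses the spots left out as outliers. The medians were 21.1 to 36.3 in CO and 39.7 to 54.3 in HFD before scaling, and the dotted lines were also higher in HFD. Scaled levels overlapped, and spike-in scaling turned the direction.

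Windows before a pair of annotated Oprm1 starts are printed because the gene has 15 transcripts in the RefSeq table and 1 of the starts lies far upstream. Both are on the plus strand of GRCm38.p6, at chr10:6758343-6758592 for the first and chr10:6788320-6788569 for the second, and capitals mark a CCAAT box.
Oprm1 start 1: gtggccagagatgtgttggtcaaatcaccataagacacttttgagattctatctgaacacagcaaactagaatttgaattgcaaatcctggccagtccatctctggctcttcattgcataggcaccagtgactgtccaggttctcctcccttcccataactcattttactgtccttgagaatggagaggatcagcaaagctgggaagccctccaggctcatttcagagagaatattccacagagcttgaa
Oprm1 start 2: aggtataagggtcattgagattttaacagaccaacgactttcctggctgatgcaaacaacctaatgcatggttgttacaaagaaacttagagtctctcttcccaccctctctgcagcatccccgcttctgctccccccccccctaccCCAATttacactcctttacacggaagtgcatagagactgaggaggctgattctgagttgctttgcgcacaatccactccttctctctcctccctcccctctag
The upstream window had a GC content of 45.6% and no CpG, and the downstream one 50% and 4 CpG, where the median of all windows was 52.4%. Oprm1 also overlaps Ipcef1 in the table, and the stretch each probe covers was not known here, so neither probe could be tied to a start or a transcript.

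Promoter windows were given for 4 of the 7 genes (Pdyn, Oprm1, Oprd1 and Oprl1). The motifs searched on both strands were the GC box GGGCGG (32.7% of all windows), CCAAT (33.8%), the TATA box TATAAA (12.4%), the cAMP response element TGACGTCA (1.55%), its core TGACG, which overlaps it (17.8%), the AP-1 site TGACTCA (4.46%) and the E-box CACGTG (6.02%). The Oprd1 window held 4 GC boxes, 1 E-box and 34 CpG at a GC content of 80%, and 1 of the 3 Oprl1 windows held a TATA box. No cAMP response element or AP-1 letters stood in any window of these genes.

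Oprd1, the δ receptor with high affinity for enkephalins, was at -4.78, -4.56, -5.43, -5.23 and -4.80 in CO and at -5.27, -5.67, -5.69, -5.34, -4.999 and -5.22 in HFD. CO samples 3 and 4 lay among the HFD samples. The means were -4.96 ± 0.36 (SD, n = 5) and -5.37 ± 0.27 (SD, n = 6), a difference of -0.40 (95% interval -0.79 to -0.02) that missed the threshold (adjusted p = 0.058, limma). It passed without CO sample 3 (-0.52), CO sample 4 (-0.47) or HFD sample 5 (-0.48), with the slide as a block (-0.40, adjusted p = 0.0483) and with the replicate number as a block (-0.43, adjusted p = 0.0461). It also passed with spike-in scaling (-1.08, adjusted p = 9.43e-05, limma) and, barely, when only probes well above background on all arrays were tested (-0.40). It did not pass with quantile normalization (-0.11, adjusted p = 0.628, limma), with normexp (-0.26, adjusted p = 0.682, limma) or in the exact Mann-Whitney test (adjusted p = 0.165). With the striatal list in the fit the difference was -0.02 (adjusted p = 0.945, limma). The Oprd1 signal was low, at 55.69 to 108.4 units in CO and 60.8 to 99.35 in HFD. The genes most like it were Map1s (r = 0.95), Eme2 (0.93) and Tac1 (0.90), the precursor of substance P.

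Oprl1, the nociceptin receptor, was again read by 2 probes that carry the same accession. The bright probe was at 3.46, 3.15, 3.39, 3.17 and 3.28 in CO and at 3.41, 3.24, 3.04, 3.37, 3.33 and 3.32 in HFD, and the groups overlapped throughout. The difference was -0.01, with a 95% interval of -0.19 to 0.18 (adjusted p = 0.947, limma). With spike-in scaling it was -0.68 and passed (adjusted p = 6.82e-05). The dim probe was at -2.86, -2.41, -2.76, -2.45 and -2.53 in CO and at -3.42, -3.35, -3.63, -3.30, -3.24 and -3.50 in HFD. All HFD samples lay below all CO samples on this probe, with a difference of -0.81 (SE 0.10), or 1.75-fold lower (adjusted p = 3.27e-05, limma). The probes deviated within groups with r = -0.21. The table lists 19 Oprl1 transcripts, and which of them each probe reads was not known here.

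**Figure D4:**
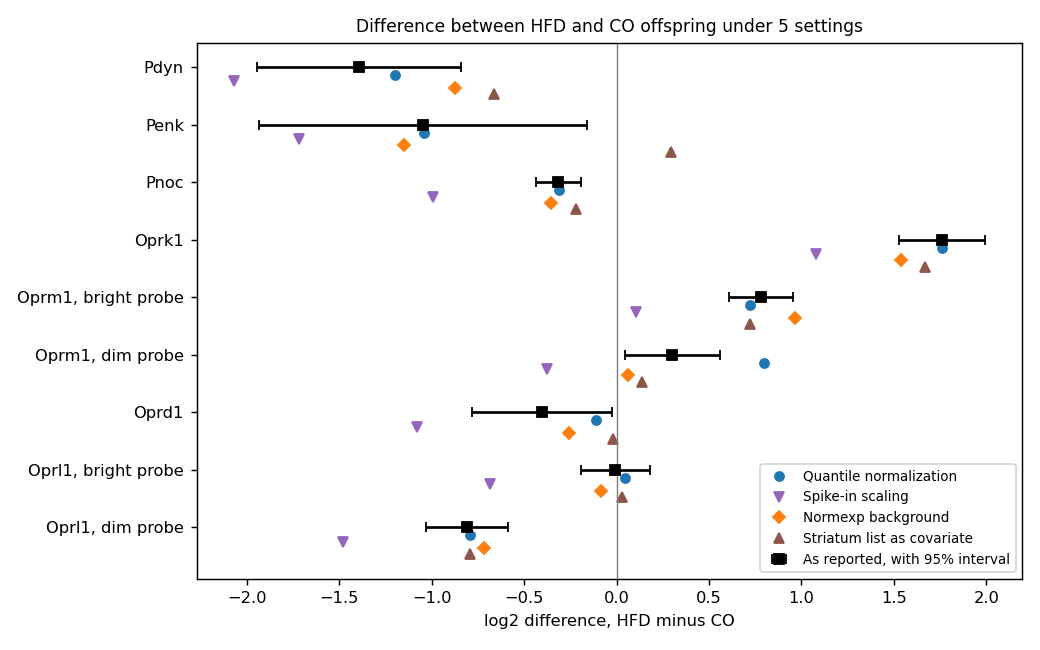
Difference between HFD and CO for each opioid probe (log2). Black squares with bars give the reported value with its 95% interval, and coloured symbols the value with quantile normalization, spike-in scaling, normexp background correction or the striatal list as a covariate. Oprk1 stayed above 0 and Pdyn, Pnoc and the dim Oprl1 probe below 0 in all of them, while Penk crossed 0 with the striatal list and the dim Oprm1 probe with spike-in scaling. The bright Oprl1 probe, reported at -0.01, was at 0.05 with quantile normalization and at 0.03 with the striatal list.

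Spike-in scaling moved Pdyn to -2.07, Penk to -1.72, Pnoc to -0.99, Oprd1 to -1.08 and the dim Oprl1 probe to -1.48, while Oprk1 stayed higher at 1.08.

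Around the receptors, 82 genes of 5 pathway lists were tested, of which 20 were higher, 34 lower and 28 did not pass (65.9% called, beside 66.4% of all genes). Their median difference was -0.14. Spike-in scaling left 4 higher and 74 lower, so the split between directions depended on the scaling. In each list the genes with the smallest adjusted p are named.

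Peptide processing had 4 higher and 4 lower of 15 genes, with a median of 0.01. The proprotein convertases Pcsk5 (0.46) and Pcsk6 (-0.42) went in opposite directions. The amidating enzyme Pam was 0.36 higher. Pcsk2, a convertase that cuts opioid precursors into short peptides, was lower on its brightest probe (-0.32) and had a difference of 0.15 on another, which did not pass (adjusted p = 0.184, limma). Pomc, the precursor of β-endorphin, was at 0.81, 0.81, 0.74, 0.80 and 1.497 in CO and at -0.003, 1.29, 0.99, 0.91, 0.69 and 1.01 in HFD, with groups that overlapped and a difference of -0.12 (adjusted p = 0.645).

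Of 12 peptide-degrading enzymes, 3 were higher and 6 lower, with a median of -0.23. The largest difference was that of Ece2 (-1.07, adjusted p = 5.01e-06, limma), a metalloprotease active at acidic pH. Dpp3, which cleaves enkephalins, was also lower (-0.85), as were the angiotensin-converting enzyme Ace (-0.62) and thimet oligopeptidase Thop1 (-0.53). The 3 higher were Mme (0.59), Lnpep (0.44) and Npepps (0.34). Another probe of Mme was at -0.07 and another of Npepps at -0.02, and neither passed.

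Of 13 G protein subunits, 2 were higher and 6 lower, with a median of -0.15. Gnb5, the β subunit that pairs with certain RGS proteins, was lower (-0.94), as were Gnaz (-0.32) and Gng4 (-0.24), while the inhibitory α subunit Gnai3 was 0.58 higher. Leaving out CO sample 1, 2 or 3 or HFD sample 1, 4 or 6 left 1 subunit higher. Of 20 effectors, 5 were higher and 9 lower, with a median of -0.24. The calcium channel Cacna1e was lower (-1.10), as were the adenylyl cyclases Adcy2 (-0.61) and Adcy3 (-0.58), while the calcium channel Cacna1a was 0.31 higher.

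Desensitization and trafficking genes numbered 22, with 6 higher, 9 lower and a median of -0.15. Rgs17, a regulator that speeds the shut-off of inhibitory G proteins, was 1.69 higher (3.24-fold, adjusted p = 8.55e-07, limma). The receptor kinase Grk4 was 1.28 higher on its brightest probe, 0.86 on the second and -0.06 on the third, which did not pass. Gprasp1, which sorts receptors to lysosomes, was 1.03 higher and Ogfrl1 1.09 higher. Rgs9, a striatal regulator that is also on the marker list, was lower (-1.16) and correlated with the mean of that list at r = 0.99 after removing the group means. Gng7 (0.97) and Adcy5 (0.96), both abundant in striatum, did so too. Of the pathway genes named above, Pcsk2 (0.90) and Gnb5 (0.88) also followed the list and Rgs17 (-0.82) ran against it. Others, such as Ece2 (0.02) and Dpp3 (0.05), did neither. With the striatal list in the fit, 12 of the 82 genes were higher and 21 lower. Calls also fell over the whole array in that fit, to 50% of all probes from 67.1%.

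**Figure D5:**
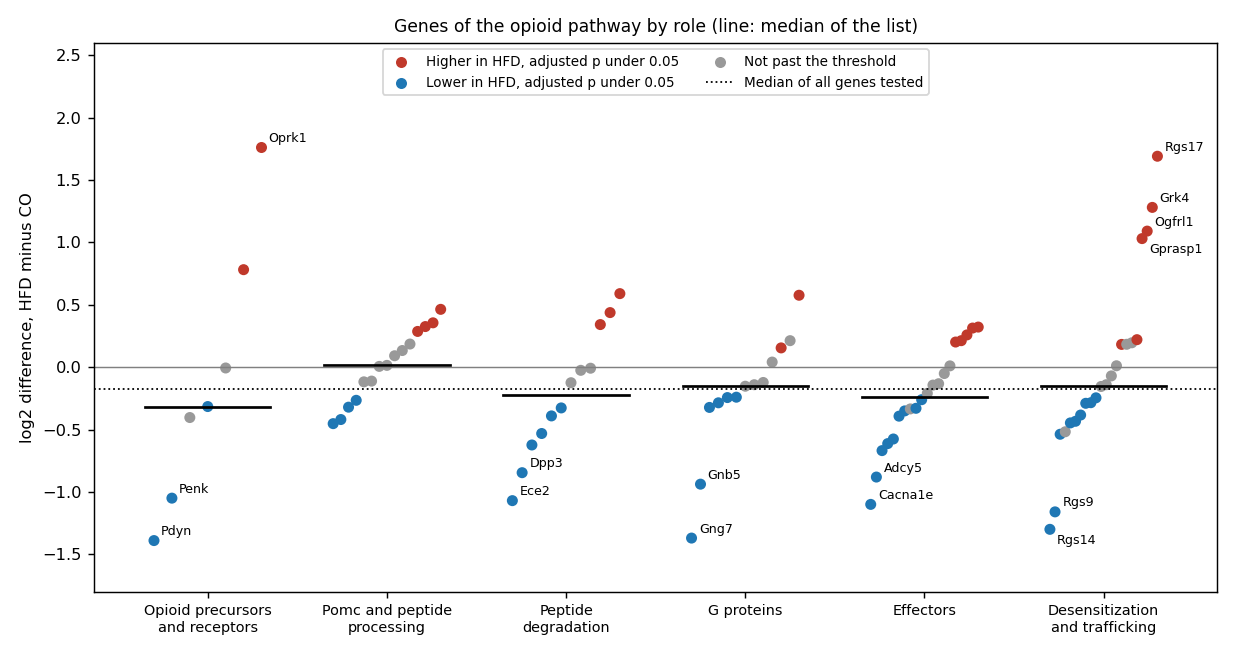
Log2 difference between HFD and CO for the opioid genes and the genes of each pathway list, 1 point per gene on its brightest probe, red higher and blue lower at an adjusted p under 0.05, grey not past it. Black lines are list medians, from -0.32 (opioid genes) to 0.01 (processing), and the dotted line is the median of all genes at -0.17. Genes with a difference beyond 0.8 are named, and spike-in scaling shifts most points below 0.

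Marker lists of the dissected tissue and its neighbours are given beside these results, to be read against 66.4% of all genes called, 22.2% higher and 44.1% lower. Of 18 hypothalamic peptides tested, 4 were higher and 1 lower (27.8% called), with Pmch (0.87), the precursor of melanin-concentrating hormone, and Hcrt (0.58), that of the orexins, among the higher ones. Of 14 markers of hypothalamic regions 3 were higher and 4 lower. Among these region markers, Sox14 was lower (-2.19) and Lhx6 1.29 higher on its brightest probe. Another Lhx6 probe had a difference of -0.49, which did not pass (adjusted p = 0.132, limma). Sim1, counted among the 3 higher, was well above background on all 6 HFD arrays and on none of the CO arrays. It therefore passed the filter only through the HFD group. Otp was well above background on 5 CO arrays and 1 HFD array, and its difference of -0.57 did not pass (adjusted p = 0.0562, limma). Of 12 thalamic markers 7 were higher and 2 lower, of 12 cortical and hippocampal ones 1 and 5, and of 6 pituitary ones 2 and 2. Of 12 neuronal markers 7 were higher and 1 lower, of 9 GABA and glutamate markers 2 and 3, of 12 microglial ones 3 and 6, of 10 astrocyte ones 2 and 2, and of 10 oligodendrocyte ones 7 were lower. These counts rest on the brightest probe of each gene, and other probes could go the other way. The microglial marker Itgam, counted as higher (0.69), had other probes at -1.67 and -0.43. Leaving out HFD sample 1 raised the hypothalamic peptides called higher to 8 and the neuronal markers called lower to 2. Leaving out CO sample 3 raised the peptides called lower to 2, leaving out CO sample 2, 3 or 4 left 2 region markers lower, leaving out CO sample 2 left 1 microglial marker higher, and leaving out any 1 sample gave 1 to 2 pituitary markers in each direction. Their part in the differences of the opioid genes was not tested.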

How the data were processed

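The authors deposited Agilent Feature Extraction output (10.8 per the submitters' notes, 10.7.3.1 per the file headers), whose processed signal is an intensity already corrected for background, with flags per spot; it was not yet normalized between arrays. Spots of controls and those marked as outliers were dropped, log2 of the deposited intensity was reduced by the 75th percentile of each array, and spots of a probe were averaged. Accessions were matched to symbols through RefSeq GRCm38.p6 (26369 probes), while the file headers name mm9 as the design build, so no gene coordinates were taken across. Probes well above background on at least 5 arrays were tested with lmFit and eBayes (limma 3.58.1, R 4.3.3), HFD minus CO, two-sided, Benjamini-Hochberg adjusted over all probes, or over all genes by the brightest probe. The fit was checked on simulated data. The study's Rank Product test (percentage of false positives below 0.001, 100 permutations) was run as an alternative.

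The opioid genes, pathway lists, marker lists and tests were chosen with earlier results of these data known. Named beside the opioid genes were the up to 4 genes of each pathway list with the smallest adjusted p, chosen marker genes, and the 3 genes most correlated with each opioid probe in deviations from the group means, among 15368 genes well above background on all 11 arrays. A gene that this rule names is not reported here. Gng7, Adcy5, Rgs9, Mme, Lnpep and Npepps were named after their values were seen. The planned mean signal column was not in the files used, so normexp (offset 50) took the median signal. Other alternatives were quantile, median and spike-in scaling, filters, blocks, an exact Mann-Whitney test, stricter thresholds, and leaving out samples. The number of arrays limits the precision.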

Additional observations from a re-analysis of the deposited data

Results flagged for a closer look

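HFD sample 1 stood apart on both Oprm1 probes, in opposite directions. On the bright probe it was the lowest HFD sample, at 5.16 with the nearest sample at 5.38, and the gap was 0.631 of the range of the group. On the dim probe it was the highest, at -5.92 with the nearest at -6.20, a gap of 0.653 of the range. Both gaps were just above the 95% critical value of Dixon's ratio for 6 samples. These were 2 of 18 groups of values examined, and chance marks about 1 in 20 groups. Without HFD sample 1 the dim probe differed by 0.24 (adjusted p = 0.075, limma) and no longer passed, while the bright probe passed without any 1 sample, at 0.75 to 0.83.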

How the results depend on the processing

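Of the 9 probes, 3 were higher and 4 lower. Spike-in scaling gave 1 and 7, the Rank Product test 1 and 0, at least 2-fold 1 and 2, and normexp left 2 lower. Of the 7 genes (2 and 3), spike-in scaling gave 1 and 5, Rank Product 1 and 0, and at least 2-fold left 1 higher. Of the 82 pathway genes (20 and 34), spike-in scaling gave 4 and 74, Rank Product 1 and 0, an adjusted p under 0.001 gave 10 and 14, at least 2-fold 4 and 5, the striatal list as a covariate 12 and 21, and normexp left 12 higher. Leaving out 1 sample gave 2 to 3 probes higher and 3 to 5 lower, 2 genes higher in every case and 2 to 4 lower, and 17 to 21 pathway genes higher and 33 to 36 lower. Penk reversed to 0.295 with the striatal covariate and the dim Oprm1 probe to -0.375 with spike-in scaling; the cause was not tested.

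Over all probes, 7487 were higher and 13852 lower (35.1% of calls higher), against 2248 and 25630 with spike-in scaling (8.06%), 4592 and 5356 with normexp (46.2%), and 887 and 645 with Rank Product (57.9%). An adjusted p under 0.001 gave 4602 and 7668, at least 2-fold 2340 and 4051, and the striatal list as a covariate 5897 and 9989. Same-numbered samples deviated together at r = -0.09 to 0.22, and 2 of 5 correlated best with their own number, so the numbers were not taken as pairs. With the leading number of the CO titles as a random block, the counts of opioid probes and genes were as reported. With the replicate number as a block, which drops HFD sample 6, 2 probes were higher and 5 lower, and over all probes 6919 and 12976. Normexp moved Pdyn to -0.875 and the dim Oprm1 probe to 0.0615, and neither passed. No slide or scan session held both groups, so no value within a session could be had. The levels of dim probes rest on signals close to background.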
